A study of Mus musculus with 12 samples.

Results

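The transporters described here are the solute carriers that move neurotransmitters and amino acids, taken as every gene of the deposited table whose symbol belongs to the Slc1, Slc6, Slc17, Slc18, Slc32 or Slc38 family. There were 49 such genes of 27978 in the table. Of these, 27 had a mean of at least 1 FPKM (fragments per kilobase of a transcript for each 1000000 fragments mapped in the library) over the 12 libraries and entered the tests, and 22 lay below that level. The libraries were made from total RNA of the hippocampus of mice that had received fecal microbiota, 4 from each of 3 groups. FMT-SP is the group that the series also names FMT-DSS+SP, and SP is short for substance P, a neuropeptide. FMT-DSS and FMT-CON carry no further description, and the labels leave the abbreviations DSS and CON unexplained. All 3 groups received a transplant, so no untransplanted mice are among them. The strain, sex and age of the mice are not given, nor when and to which mice substance P was given. Whether each library is a separate mouse is not stated either, so p-values measure only the spread between these libraries, which may be technical.

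Released transmitter is cleared by sodium-coupled carriers of the plasma membrane. The Slc1 family takes up glutamate, mostly into astrocytes, and the Slc6 family takes up GABA, glycine, monoamines, proline, taurine and creatine. Inside nerve terminals, proton-driven carriers load synaptic vesicles: Slc17 members with glutamate, Slc18 members with monoamines or acetylcholine, and Slc32a1 with GABA and glycine. Slc38 carriers move glutamine and other neutral amino acids, and part of them serve the cycle in which astrocytes return glutamine to neurons.

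The promoters of 3 transporters are shown because of where their levels were highest or lowest among the libraries. Slc17a6 and Slc6a11 were highest in the same pair of libraries, and Slc17a7, the most abundant of the family, was lowest in one of these. The sequences are RefSeq promoters on GRCm38.p6, from 250 bases before to 50 bases after the start, 5′ to 3′, with the motif GGGCGG on either strand in capitals.
Slc17a6, chr7:51621580-51621879, + strand: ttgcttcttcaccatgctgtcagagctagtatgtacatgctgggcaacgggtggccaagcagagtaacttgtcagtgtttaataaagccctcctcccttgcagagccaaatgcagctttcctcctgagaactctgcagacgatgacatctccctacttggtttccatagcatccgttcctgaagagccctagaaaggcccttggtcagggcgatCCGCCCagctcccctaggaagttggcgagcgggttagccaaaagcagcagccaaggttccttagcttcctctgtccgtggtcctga
Slc17a7, chr7:45163671-45163970, + strand: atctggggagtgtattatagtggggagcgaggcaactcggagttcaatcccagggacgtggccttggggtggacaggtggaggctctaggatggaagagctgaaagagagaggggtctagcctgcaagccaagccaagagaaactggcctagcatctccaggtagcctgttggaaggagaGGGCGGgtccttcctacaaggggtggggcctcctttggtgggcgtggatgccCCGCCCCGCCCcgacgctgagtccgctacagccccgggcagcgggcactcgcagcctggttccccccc
Slc6a11, chr6:114130991-114131290, + strand: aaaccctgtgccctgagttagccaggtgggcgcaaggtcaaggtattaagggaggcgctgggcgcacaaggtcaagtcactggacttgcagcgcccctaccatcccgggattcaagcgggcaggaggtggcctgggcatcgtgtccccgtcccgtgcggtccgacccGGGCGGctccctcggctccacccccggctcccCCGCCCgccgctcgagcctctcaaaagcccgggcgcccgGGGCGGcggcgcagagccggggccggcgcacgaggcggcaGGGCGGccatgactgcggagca
The Slc17a6 window, 1 of 2 listed for the gene, holds 1 GGGCGG, that of Slc17a7 holds 3 and that of Slc6a11 holds 4. GGGCGG occurs in 35.7% of the 32851 mouse promoters of the same length. On both strands, none of the 3 windows holds TATAAA, which is found in 13.6% of all promoters. None holds CCAAT, found in 37.4%, or the motif TGACGTCA, found in 1.79%. CpG dinucleotides numbered 8, 13 and 32 in the promoters of Slc17a6, Slc17a7 and Slc6a11, beside a median of 7 over all promoters.

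Estimated depth was 31.6 to 37.3 M (1000000) mapped fragments per library. The 10 markers of hippocampal pyramidal and granule cells were detected in all 12 libraries, at a summed level of 215 to 235 FPKM in FMT-SP, 198 to 234 FPKM in FMT-DSS and 157 to 238 FPKM in FMT-CON. Some libraries stood apart. The 7 thalamus markers summed to 125 FPKM in FMT-SP 3 and 227 FPKM in FMT-CON 1, against 20.4 to 60.8 FPKM in the other 10 libraries. The 7 choroid plexus markers, most of whose sum is Ttr, summed to 3840.1 FPKM in FMT-SP 3 and 3609.6 FPKM in FMT-CON 1, against 18.2 to 2926 FPKM in the others. The summed level of the 9 striatum markers was highest in FMT-DSS 3, at 411 FPKM. Gh and Prl, which encode hormones of the pituitary, had their highest levels in FMT-CON 3, at 2899 and 621 FPKM. The 3 libraries numbered 4 had 24.0% (FMT-SP 4), 29.0% (FMT-DSS 4) and 27.7% (FMT-CON 4) of their summed FPKM in the 13 mitochondrially encoded genes. The other 9 libraries had 15.9% to 20.3%.

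Carriers of glutamate were the most abundant of the set. Slc17a7, which fills the vesicles of hippocampal excitatory neurons, averaged 397 FPKM over the 12 libraries and ranked above every other member in each of them. Its level was 474, 399, 344 and 485 FPKM in FMT-SP 1 to 4, 432, 397, 319 and 435 FPKM in FMT-DSS 1 to 4, and 217, 368, 424 and 469.7 FPKM in FMT-CON 1 to 4. The lowest value was that of FMT-CON 1, and the ranges of the 3 groups overlapped. Slc1a2, the main astrocyte glutamate carrier (chromosome 2, 102658659 to 102790784, GRCm38), was next at 148 FPKM on average. It had 189.5, 200.5, 168 and 109.5 FPKM in FMT-SP 1 to 4, 194, 156, 135 and 69.9 FPKM in FMT-DSS 1 to 4, and 134, 204, 134 and 86.9 FPKM in FMT-CON 1 to 4. Library 4 was the lowest of each group, and the spread within groups was larger than any difference between their means. Slc1a3, the other astrocyte carrier, ran from 45.3 FPKM (FMT-CON 4) to 88.3 FPKM (FMT-SP 2) and was below Slc1a2 in all 12 libraries, at a ratio of Slc1a2 to Slc1a3 between 1.41 (FMT-DSS 4) and 2.51 (FMT-CON 2). In bulk tissue such as this, fewer cells of a type and less RNA per cell cannot be told apart.

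**Figure D1:**
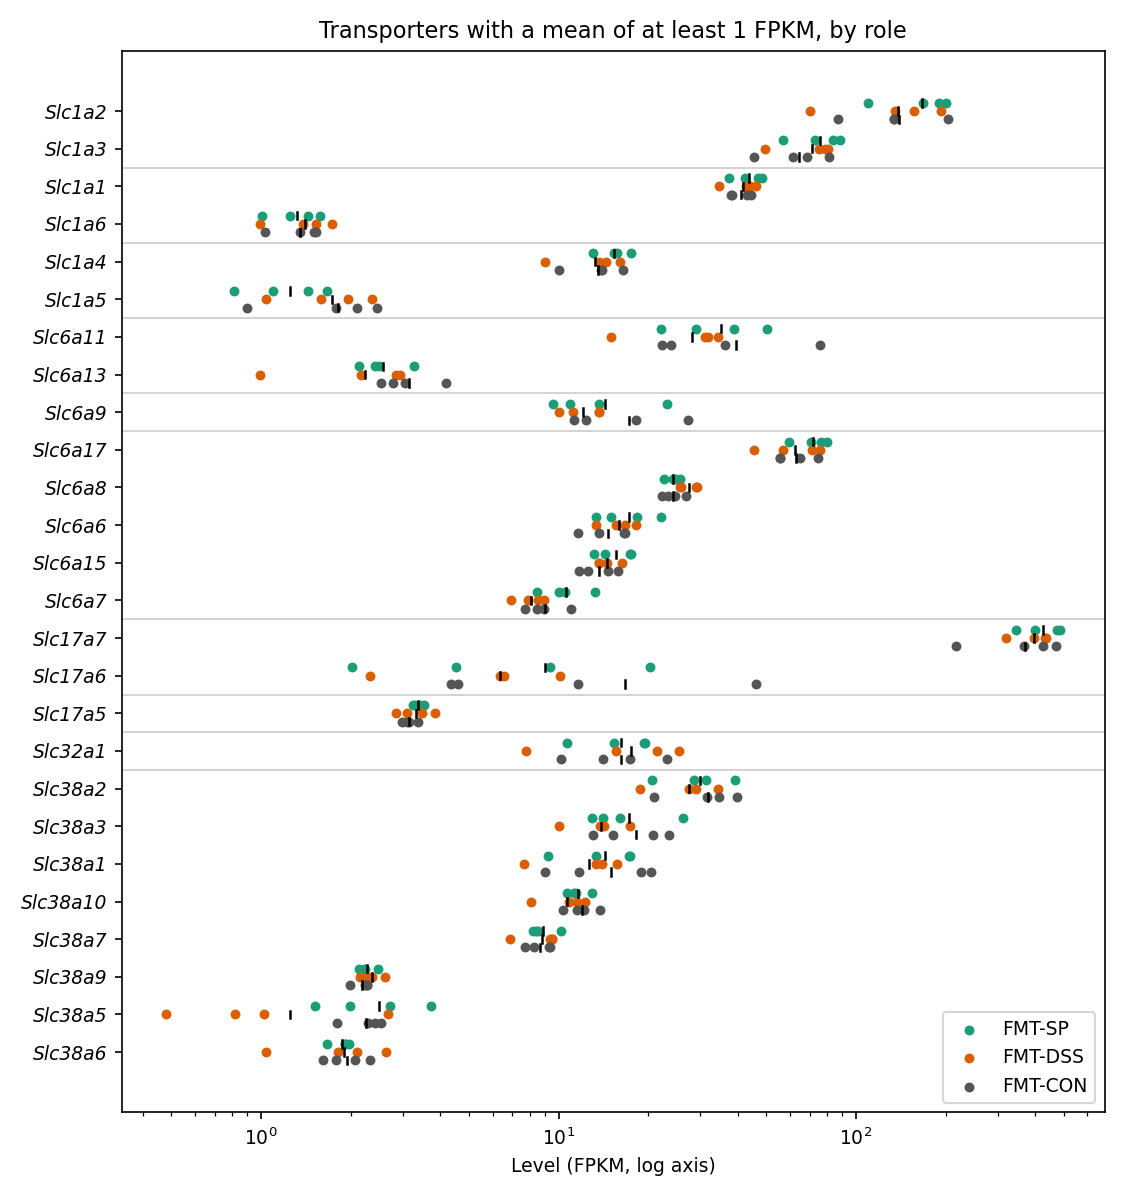
Levels of 26 transporters with a mean of at least 1 FPKM in the 12 libraries, in FPKM on a log axis, with genes grouped by role; points are libraries coloured by group and short black lines are group means (n = 4). The groups overlap for each gene shown, and Slc17a7 lies at the top, between 217 and 485 FPKM.

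Neuronal uptake of glutamate was represented by Slc1a1, which also carries cysteine. Slc1a1 was at 48.5, 47.0, 42.4 and 37.5 FPKM in FMT-SP 1 to 4, 46.0, 42.8, 44.0 and 34.6 FPKM in FMT-DSS 1 to 4, and 38.1, 42.9, 44.4 and 38.3 FPKM in FMT-CON 1 to 4. These values were close to each other, with a coefficient of variation of 10.03% over the 12 libraries. Slc1a6, known from cerebellar Purkinje cells, stayed at 0.994 to 1.73 FPKM, and Slc1a7, the retinal form, was highest in FMT-DSS 4 at 0.119 FPKM, about 14 of the 35 fragments that its values stand for. The exchangers Slc1a4 and Slc1a5 swap serine, alanine and other neutral amino acids. Slc1a4 had 15.4, 17.5, 15.7 and 13.03 FPKM in FMT-SP 1 to 4, 13.6, 16.1, 14.4 and 8.97 FPKM in FMT-DSS 1 to 4, and 13.9, 16.5, 13.96 and 10.1 FPKM in FMT-CON 1 to 4. Library 4 was again the lowest in each group. Slc1a5 was lower, at 1.44, 0.812, 1.10 and 1.66 FPKM in FMT-SP 1 to 4, 1.04, 1.96, 1.59 and 2.35 FPKM in FMT-DSS 1 to 4, and 1.79, 0.898, 2.45 and 2.10 FPKM in FMT-CON 1 to 4. Its groups overlapped, and its highest value lay in FMT-CON 3.

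Of the GABA carriers, Slc6a11, the astrocyte form (chromosome 6, 114131241 to 114249952, GRCm38), was at 29.1, 38.9, 50.4 and 22.1 FPKM in FMT-SP 1 to 4, 31.1, 31.8, 34.4 and 15.0 FPKM in FMT-DSS 1 to 4, and 76.0, 36.3, 23.9 and 22.2 FPKM in FMT-CON 1 to 4. FMT-CON 1 and FMT-SP 3 were the highest libraries and FMT-DSS 4 the lowest. Slc6a13, a GABA and taurine carrier known from the meninges and vessels, was at 2.41, 3.26, 2.49 and 2.14 FPKM in FMT-SP 1 to 4, 0.990, 2.94, 2.84 and 2.18 FPKM in FMT-DSS 1 to 4, and 2.54, 2.78, 4.19 and 3.05 FPKM in FMT-CON 1 to 4. FMT-DSS 1 was its lowest library and FMT-CON 3 its highest. Slc6a12, a carrier of betaine and GABA, stayed below 1 FPKM in every library (0.125 to 0.872 FPKM).

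Glycine uptake rested on Slc6a9, the glial form, at 9.57, 13.7, 23.1 and 10.9 FPKM in FMT-SP 1 to 4, 13.7, 11.1, 13.7 and 10.01 FPKM in FMT-DSS 1 to 4, and 27.3, 18.2, 12.4 and 11.3 FPKM in FMT-CON 1 to 4. FMT-SP 3 and FMT-CON 1 were the highest libraries. Exons of Slc6a9 overlap those of B4galt2 and Ccdc24 on the opposite strand, at means of 13.5 and 1.19 FPKM, and whether counting used strand is not given. Slc6a5, the neuronal glycine carrier of spinal cord and brainstem, had 0.0166 FPKM at most and was listed at 0 in 3 libraries. The monoamine carriers Slc6a2 (noradrenaline), Slc6a3 (dopamine) and Slc6a4 (serotonin) act on axons whose cell bodies lie in the brainstem and midbrain. Slc6a3 had the highest mean of them, with 0.0332, 0.0240, 0.0273 and 0.0178 FPKM in FMT-SP 1 to 4, 0.0110, 0.0487, 0.0318 and 0.0174 FPKM in FMT-DSS 1 to 4, and 0.0165, 0.0438, 0.0277 and 0.161 FPKM in FMT-CON 1 to 4. FMT-CON 4 held about 28 of its 81 fragments. Slc6a4 reached 0.104 FPKM in FMT-CON 4, with about 10 of 35 fragments, and was listed at 0 in 4 libraries. It was above Slc6a3 in FMT-SP 1, FMT-SP 3, FMT-DSS 1 and FMT-CON 1, so their order changed between libraries. Slc6a2 had about 12 fragments in all.

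The other Slc6 carriers were led by Slc6a17, a neutral amino acid carrier of synaptic vesicles. It was at 76.3, 79.8, 70.3 and 59.8 FPKM in FMT-SP 1 to 4, 71.3, 75.9, 56.9 and 45.4 FPKM in FMT-DSS 1 to 4, and 65.0, 74.8, 55.4 and 55.3 FPKM in FMT-CON 1 to 4. FMT-DSS 4 was the lowest library. Slc6a8, which brings creatine into cells, had one of the smallest spreads of the set, with a coefficient of variation of 8.80%. Its level was 24.2, 24.7, 22.6 and 25.7 FPKM in FMT-SP 1 to 4, 25.7, 29.0, 25.6 and 29.3 FPKM in FMT-DSS 1 to 4, and 26.8, 23.3, 22.3 and 24.7 FPKM in FMT-CON 1 to 4. FMT-DSS held the 2 highest values, while its lowest, 25.6 FPKM, lay within FMT-CON and FMT-SP. Slc6a6, the taurine carrier, was at 15.0, 22.2, 18.4 and 13.3 FPKM in FMT-SP 1 to 4, 16.8, 18.2, 15.6 and 13.4 FPKM in FMT-DSS 1 to 4, and 16.6, 16.7, 13.7 and 11.7 FPKM in FMT-CON 1 to 4. Library 4 was the lowest of each group. Slc6a15, a neuronal carrier of branched-chain amino acids and proline, was at 17.6, 17.3, 14.4 and 13.2 FPKM in FMT-SP 1 to 4, 13.7, 16.3, 14.5 and 13.7 FPKM in FMT-DSS 1 to 4, and 11.8, 14.7, 15.8 and 12.5 FPKM in FMT-CON 1 to 4. Its groups overlapped. Slc6a7, the proline carrier of excitatory terminals, was at 10.01, 10.5, 8.48 and 13.3 FPKM in FMT-SP 1 to 4, 7.92, 8.51, 8.96 and 6.94 FPKM in FMT-DSS 1 to 4, and 8.93, 8.49, 7.70 and 10.97 FPKM in FMT-CON 1 to 4. FMT-SP 4 was the highest library for Slc6a7 and FMT-DSS 4 the lowest. Slc6a16 and Slc6a19 stayed at 0.0856 to 0.534 and 0.0291 to 0.200 FPKM, Slc6a21 did not pass 0.0101 FPKM, and Slc6a14 and Slc6a18 were listed at 0 in 11 libraries each.

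Among the vesicular carriers, Slc17a6, which fills glutamate vesicles of thalamic and brainstem neurons (chromosome 7, 51622006 to 51671119, GRCm38), varied more than any other tested member, with a coefficient of variation of 115%. Its level was 4.53, 9.35, 20.3 and 2.03 FPKM in FMT-SP 1 to 4, 6.35, 10.1, 6.54 and 2.32 FPKM in FMT-DSS 1 to 4, and 46.2, 11.7, 4.59 and 4.35 FPKM in FMT-CON 1 to 4. FMT-CON 1 stood highest and FMT-SP 3 next. The third form, Slc17a8, found in a minority of interneurons and serotonin neurons, was at 0.338 to 1.15 FPKM. Slc32a1, which loads GABA in inhibitory terminals, was at 15.3, 19.6, 19.4 and 10.7 FPKM in FMT-SP 1 to 4, 21.4, 15.6, 25.3 and 7.76 FPKM in FMT-DSS 1 to 4, and 17.4, 23.2, 14.1 and 10.2 FPKM in FMT-CON 1 to 4. FMT-DSS 3 was its highest library and FMT-DSS 4 its lowest, so FMT-DSS spanned the whole range. FMT-DSS 3 was also the library of the highest striatum marker sum, 411 FPKM against 68.5 to 203 FPKM in the other 11, whose part in the Slc32a1 value was not tested. Slc17a5, a lysosomal carrier of sialic acid, was among the steadiest, at 3.43, 3.23, 3.53 and 3.30 FPKM in FMT-SP 1 to 4, 3.49, 3.84, 2.85 and 3.09 FPKM in FMT-DSS 1 to 4, and 2.98, 3.10, 3.37 and 3.15 FPKM in FMT-CON 1 to 4. Slc17a9, a vesicular nucleotide carrier, had 0.0319 to 0.721 FPKM, and Slc17a1, Slc17a2 and Slc17a3, a cluster on chromosome 13, did not pass 0.0174 FPKM.

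The vesicular monoamine carrier Slc18a2 was low, at 0.291, 0.457, 1.09 and 0.390 FPKM in FMT-SP 1 to 4, 0.525, 0.419, 1.51 and 0.464 FPKM in FMT-DSS 1 to 4, and 0.948, 0.863, 0.765 and 0.460 FPKM in FMT-CON 1 to 4. Its highest library was FMT-DSS 3. Slc18a3, the vesicular acetylcholine carrier, was at 0.0229, 0.0248, 0.349 and 0.0369 FPKM in FMT-SP 1 to 4, 0.0453, 0.660, 0.856 and 0.0840 FPKM in FMT-DSS 1 to 4, and 1.45, 0.159, 0.0115 and 0.0238 FPKM in FMT-CON 1 to 4. It was highest in FMT-CON 1, followed by FMT-DSS 3 and then FMT-DSS 2. Slc18a3 lies within the span of Chat, the gene of the enzyme that makes acetylcholine (Slc18a3 at 32462438 to 32464850 and Chat at 32408203 to 32465989 on chromosome 14, GRCm38, both on the - strand). Chat and Slc5a7, the choline carrier, were also highest in FMT-CON 1, at 1.91 and 3.11 FPKM. The cholinergic pair summed to 5.02 FPKM there and to 0.0886 to 1.41 FPKM in the other 11 libraries, and its part in the Slc18a3 values was not tested. Slc18a1, the form of endocrine cells, did not pass 0.0389 FPKM.

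The glutamine carriers were led by Slc38a2, a widely expressed carrier that cells induce when amino acids are short. It was at 28.6, 39.3, 31.2 and 20.7 FPKM in FMT-SP 1 to 4, 34.3, 28.9, 27.5 and 18.8 FPKM in FMT-DSS 1 to 4, and 39.7, 34.6, 31.7 and 20.9 FPKM in FMT-CON 1 to 4. Library 4 was the lowest of each group, and FMT-CON 1 the highest of the 12. Slc38a3, through which astrocytes release glutamine, was at 12.9, 16.1, 26.1 and 14.1 FPKM in FMT-SP 1 to 4, 14.2, 13.8, 17.3 and 10.1 FPKM in FMT-DSS 1 to 4, and 23.6, 20.7, 15.2 and 13.1 FPKM in FMT-CON 1 to 4. FMT-SP 3 was the highest library and FMT-DSS 4 the lowest. Slc38a5, a glutamine carrier known from astrocytes (chromosome X, 8271133 to 8280179, GRCm38), was at 1.52, 2.71, 3.73 and 1.99 FPKM in FMT-SP 1 to 4, 0.819, 1.03, 2.67 and 0.480 FPKM in FMT-DSS 1 to 4, and 2.42, 2.53, 2.28 and 1.80 FPKM in FMT-CON 1 to 4. FMT-DSS 1, 2 and 4 were the 3 lowest libraries, and FMT-DSS 3 lay with the other groups. Slc38a1, a neuronal glutamine carrier, ran from 7.63 FPKM (FMT-DSS 4) to 20.4 FPKM (FMT-CON 1). The lysosomal carriers Slc38a7 and Slc38a9 and the less studied Slc38a10 and Slc38a6 averaged 8.77, 2.27, 11.4 and 1.91 FPKM. Slc38a9, which senses arginine, had the smallest spread of the 27, with a coefficient of variation of 7.07%. Slc38a11 and Slc38a4 had 0.192 to 1.14 and 0.0991 to 0.448 FPKM. Slc38a8 was at 0.0184, 0.0200, 0.163 and 0.0989 FPKM in FMT-SP 1 to 4, 0.0456, 0.0900, 0.138 and 0.0579 FPKM in FMT-DSS 1 to 4, and 0.477, 0.0911, 0.00923 and 0.0669 FPKM in FMT-CON 1 to 4. It was highest in FMT-CON 1, with FMT-SP 3 next.

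In order of mean level over the 12 libraries, only 5 of the 26 steps between neighbouring genes held in every library: Slc17a7 above Slc1a2, Slc1a2 above Slc1a3, Slc6a17 above Slc1a1, Slc6a8 above Slc32a1 and Slc38a7 above Slc17a5. Places changed between libraries in the run of Slc32a1, Slc38a3, Slc6a6, Slc6a15, Slc6a9, Slc1a4 and Slc38a1, whose means lay between 13.997 and 16.7 FPKM. Only neighbours were set against each other library by library, so nothing is said of genes further apart in this run. No difference between genes was tested.

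**Figure D2:**
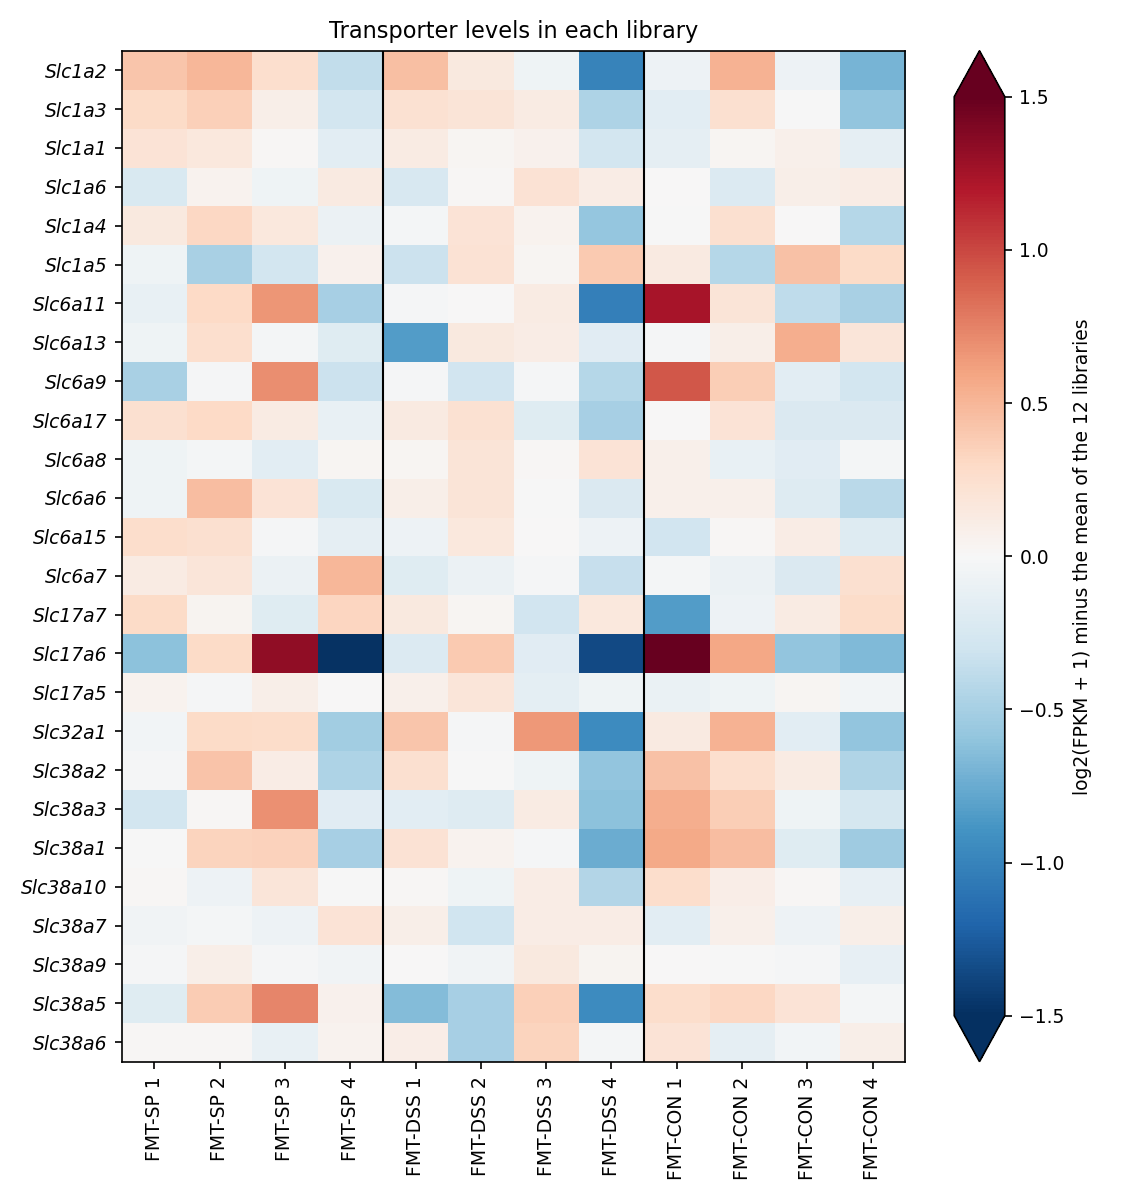
Levels of 26 transporters in each library as log2(FPKM + 1) minus the mean of the 12 libraries for that gene, with libraries in columns, genes in rows grouped by role, and black lines between the groups. Slc17a6, Slc6a11 and Slc6a9 are highest in FMT-CON 1 and high in FMT-SP 3, and Slc1a2, Slc32a1 and Slc38a1 are low in the libraries numbered 4.

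The first comparison, FMT-DSS against FMT-CON, concerns the transplant groups whose labels do not name substance P. No transporter passed the test: 0 of 27 had an adjusted p under 0.05 in limma, 0% of all 12559 genes tested did, and the smallest adjusted p of a transporter was 0.966. The largest difference relative to its error was that of Slc38a5, at 1.25 ± 0.974 FPKM in FMT-DSS and 2.26 ± 0.324 FPKM in FMT-CON (SD, n = 4 each). At an unadjusted p under 0.05 there was 1 transporter with a lower mean, Slc38a5, against 2.81% of all genes, and 0 with a higher mean, against 1.25%. The groups overlapped in all 27 transporters, whereas they did not overlap in 1.75% of all genes. Means were higher in FMT-DSS for 12 of 27 transporters, and for 40.3% of all genes. After median-ratio rescaling of the libraries they were higher for 16 of 27, and the genes of unadjusted p under 0.05 were 241 higher and 243 lower, in place of 157 and 353. The median change was -0.03 on the log2(FPKM + 1) scale for the transporters and -0.03 for all genes.

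The change of Slc38a5 was -0.62 ± 0.26 (SE; 95% interval -1.17 to -0.06; unadjusted p = 0.0327) on that scale, which understates the fold of low genes. It was -0.88 ± 0.20 without FMT-DSS 3, the highest library of that group, and -0.33 ± 0.29 without FMT-DSS 2 and FMT-DSS 4. Those 2 libraries also had the lowest summed levels of the 7 microglia markers, at 29.3 and 22.5 FPKM, against 48.8 to 68.6 FPKM in the other 10. One of the 7, Csf1r, was not low in FMT-DSS 2, at 19.1 FPKM. The part of this in the Slc38a5 values was not tested. Slc6a8, the creatine carrier, averaged 27.4 ± 2.02 FPKM in FMT-DSS and 24.3 ± 1.93 FPKM in FMT-CON, a log2 change of 0.17 ± 0.08 (SE; 95% interval -0.01 to 0.35; unadjusted p = 0.0637). Slc6a13 averaged 2.24 ± 0.899 FPKM in FMT-DSS and 3.14 ± 0.731 FPKM in FMT-CON, a log2 change of -0.39 ± 0.21 (SE; 95% interval -0.84 to 0.06; unadjusted p = 0.0828). The log2 change was -0.17 ± 0.16 without FMT-DSS 1. Slc38a3 averaged 13.8 ± 2.98 FPKM in FMT-DSS and 18.2 ± 4.85 FPKM in FMT-CON, a log2 change of -0.36 ± 0.23 (SE; 95% interval -0.86 to 0.15; unadjusted p = 0.151). It was -0.22 ± 0.24 without FMT-CON 1, -0.22 ± 0.24 without FMT-DSS 4 and -0.16 ± 0.28 without FMT-DSS 2 and FMT-DSS 4. All of these but Slc38a5 had an interval that included 0.

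The most abundant carriers showed no difference that these libraries could resolve. Slc17a7 averaged 396 ± 54.0 FPKM in FMT-DSS and 369.8 ± 109.7 FPKM in FMT-CON, a log2 change of 0.14 ± 0.21 (SE; 95% interval -0.32 to 0.60; unadjusted p = 0.509). Slc1a2 averaged 139 ± 51.9 FPKM in FMT-DSS and 139.7 ± 48.4 FPKM in FMT-CON, a log2 change of -0.04 ± 0.32 (SE; 95% interval -0.72 to 0.65; unadjusted p = 0.911). Both intervals included 0. Slc17a6 had the largest change of the 27 in size, -0.78 ± 0.71, and the widest interval. Without FMT-CON 1 its change was -0.10 ± 0.60, and those of Slc6a11 and Slc6a9 were -0.004 ± 0.32 and -0.17 ± 0.26, beside -0.37 ± 0.38 and -0.41 ± 0.28 with all libraries. Over the 27 transporters the half-width of the 95% interval had a median of 0.38 and ranged from 0.18 to 1.55.

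**Figure D3:**
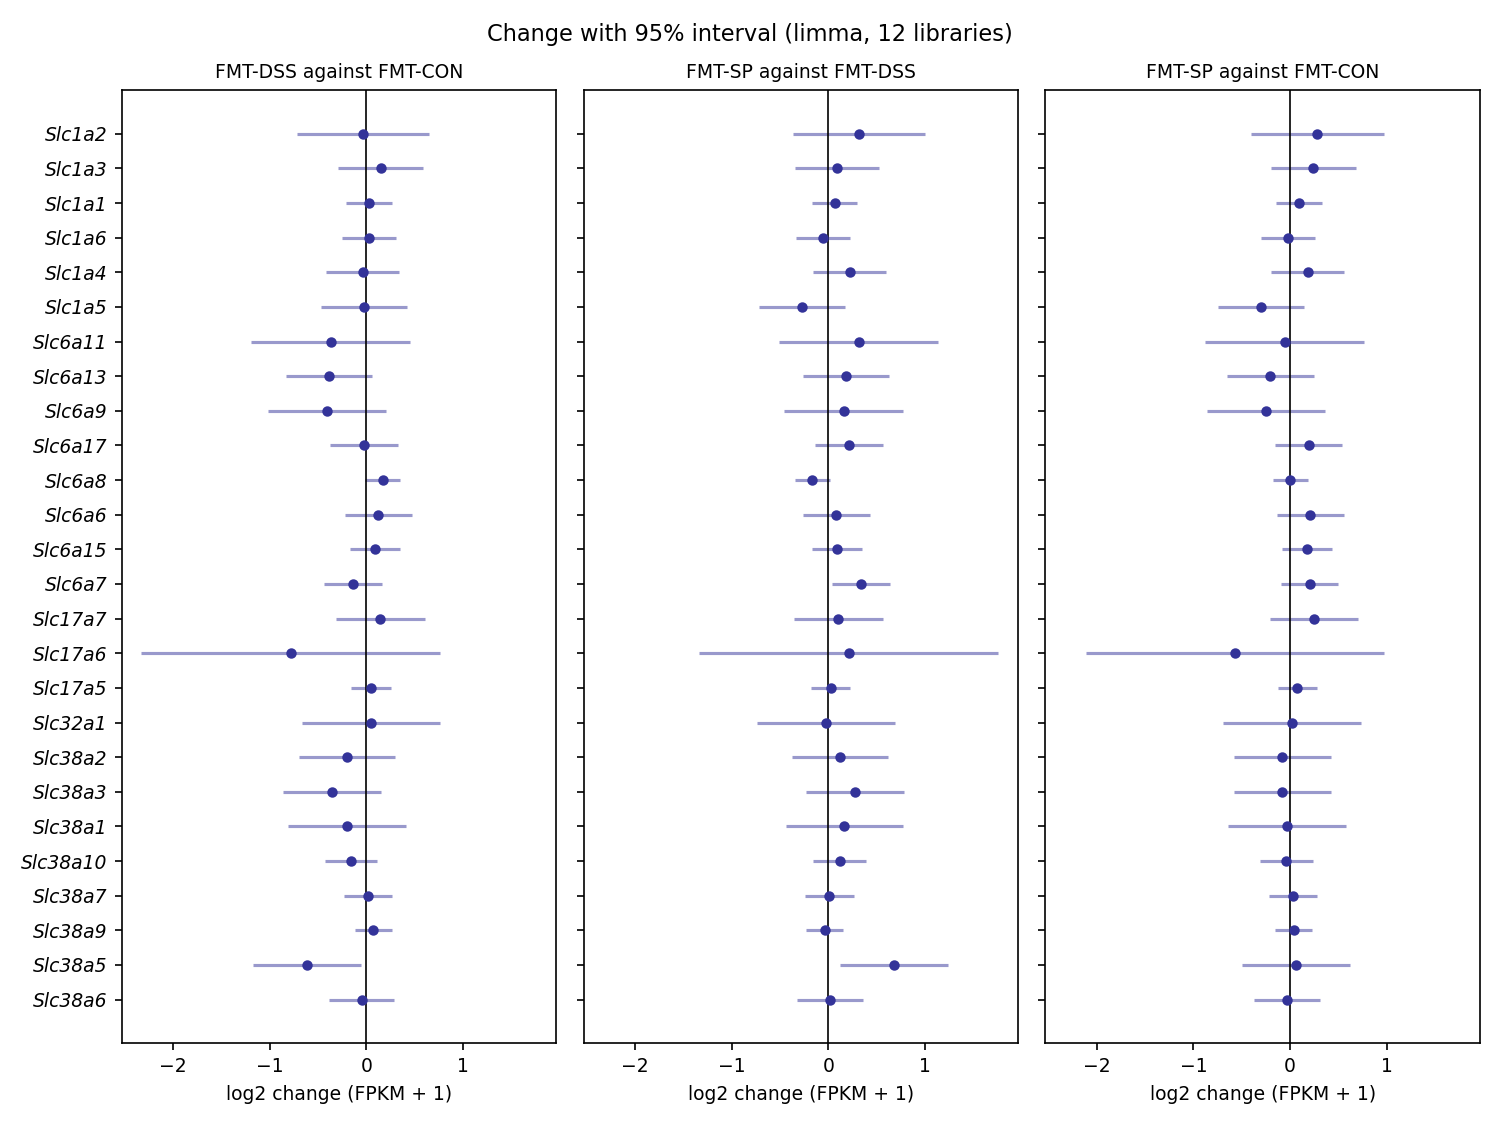
Change of 26 transporters on the log2(FPKM + 1) scale with its 95% interval (limma, all 12 libraries in 1 fit), for the 3 comparisons, with genes grouped by role. The interval excludes 0 for Slc38a5 in FMT-DSS against FMT-CON and for Slc38a5 and Slc6a7 in FMT-SP against FMT-DSS, none of which passed the adjusted test.

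FMT-SP against FMT-DSS compares the transplant group whose label adds substance P with FMT-DSS. When and to which mice substance P was given is not stated, so an effect of it in these mice cannot be read from this comparison. Again 0 of 27 transporters passed the adjusted test in limma, and 0% of all genes did. The smallest adjusted p of a transporter was 0.999. Counted at an unadjusted p under 0.05, 2 transporters had a higher mean, Slc38a5 and Slc6a7, against 1.27% of all genes, and 0 with a lower mean, against 1.23%. The groups overlapped in all 27 transporters, whereas they did not overlap in 1.27% of all genes. Means were higher in FMT-SP for 21 of 27, beside 58.9% of all genes, and the median change was 0.10 for the transporters and 0.03 for all genes. Without FMT-DSS 2 and FMT-DSS 4 the means were higher for 13 of 27, and the median change was -0.01. Any 2 of the 3 comparisons share the 4 libraries of one group, so their values are not independent.

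Slc38a5 averaged 2.49 ± 0.962 FPKM in FMT-SP and 1.25 ± 0.974 FPKM in FMT-DSS, a log2 change of 0.68 ± 0.26 (SE; 95% interval 0.12 to 1.24; unadjusted p = 0.0206). Against FMT-CON, FMT-SP differed in Slc38a5 by 0.06 ± 0.26. Without FMT-DSS 3 the change against FMT-DSS was 0.95 ± 0.20, and without FMT-DSS 2 and FMT-DSS 4 it was 0.39 ± 0.29. Slc6a7 averaged 10.6 ± 2.02 FPKM in FMT-SP and 8.08 ± 0.872 FPKM in FMT-DSS, a log2 change of 0.34 ± 0.14 (SE; 95% interval 0.04 to 0.64; unadjusted p = 0.0290). In the libraries numbered 4 it was highest in FMT-SP and lowest in FMT-DSS, and without the 3 libraries numbered 4 the change was 0.17 ± 0.10. Slc6a8 averaged 24.3 ± 1.29 FPKM in FMT-SP and 27.4 ± 2.02 FPKM in FMT-DSS, a log2 change of -0.17 ± 0.08 (SE; 95% interval -0.35 to 0.02; unadjusted p = 0.0690). Slc6a17 averaged 71.5 ± 8.77 FPKM in FMT-SP and 62.3 ± 13.9 FPKM in FMT-DSS, a log2 change of 0.22 ± 0.16 (SE; 95% interval -0.13 to 0.56; unadjusted p = 0.204). Slc1a5 averaged 1.25 ± 0.373 FPKM in FMT-SP and 1.74 ± 0.559 FPKM in FMT-DSS, a log2 change of -0.27 ± 0.21 (SE; 95% interval -0.72 to 0.17; unadjusted p = 0.209). The intervals of Slc6a8, Slc6a17 and Slc1a5 included 0.

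In FMT-SP against FMT-CON, 0 of 27 transporters passed the adjusted test in limma, and 0% of all genes did. At an unadjusted p under 0.05 there were also 0, beside 0.358% of all genes. The groups overlapped in all 27, whereas they did not overlap in 0.494% of all genes. Means were higher in FMT-SP for 16 of 27, beside 46.7% of all genes. The transporters of smallest p were carriers of neutral amino acids, proline and taurine. Slc6a15 averaged 15.6 ± 2.17 FPKM in FMT-SP and 13.7 ± 1.88 FPKM in FMT-CON, a log2 change of 0.18 ± 0.12 (SE; 95% interval -0.08 to 0.43; unadjusted p = 0.162). Slc6a7 differed by 0.20 ± 0.14 (SE; 95% interval -0.10 to 0.50; unadjusted p = 0.166). Slc1a5 differed by -0.30 ± 0.21 (SE; 95% interval -0.75 to 0.15; unadjusted p = 0.169). The taurine carrier Slc6a6 averaged 17.2 ± 3.90 FPKM in FMT-SP and 14.7 ± 2.44 FPKM in FMT-CON, a log2 change of 0.21 ± 0.16 (SE; 95% interval -0.14 to 0.55; unadjusted p = 0.219). Slc6a17 differed by 0.19 ± 0.16 (SE; 95% interval -0.16 to 0.54; unadjusted p = 0.254). Each of these 5 intervals included 0. The median change of the transporters was 0.03, and that of all genes -0.01.

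Larger differences lay between libraries of the same group. FMT-SP 3 and FMT-CON 1 were the 2 highest libraries for 5 of 27 transporters, Slc17a6, Slc6a11, Slc6a9, Slc38a3 and Slc38a10, beside 7.03% of all genes. FMT-CON 1 was the highest for 6 of 27, beside 17.1%. Slc17a6 made up 5.54% of the summed vesicular glutamate carriers in FMT-SP 3 and 17.4% in FMT-CON 1, against 0.416% to 3.06% in the other 10 libraries. In FMT-CON 1, Slc17a7 had its lowest level and the 10 hippocampal markers their lowest sum, 157 FPKM. Of these 10, only Neurod6, Spink8 and Fibcd1 were themselves lowest in FMT-CON 1. Prox1, Dsp and Zbtb20 were higher in FMT-CON 1 than in most libraries, so the low sum does not hold for each marker. FMT-SP 3 and FMT-CON 1 also led in the summed thalamus markers, none of which was at 0 in any library. The range was 20.4 to 125 FPKM in FMT-SP, 31.2 to 50.4 FPKM in FMT-DSS and 27.3 to 227 FPKM in FMT-CON. They also led in the summed choroid plexus markers, most of whose sum is Ttr and none of which was at 0 in any library. The range was 18.2 to 3840.1 FPKM in FMT-SP, 1306 to 2926 FPKM in FMT-DSS and 30.7 to 3609.6 FPKM in FMT-CON. Of these markers, Folr1 and Clic6 were highest in FMT-DSS 2, at 9.43 and 16.6 FPKM, and Aqp1 was higher there than in FMT-CON 1. The pair led as well in the summed level of the 6 oligodendrocyte markers, at 1933 and 2495 FPKM, against 1026 to 1922 FPKM in the others. The part of these markers in the transporter levels was not tested.

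**Figure D4:**
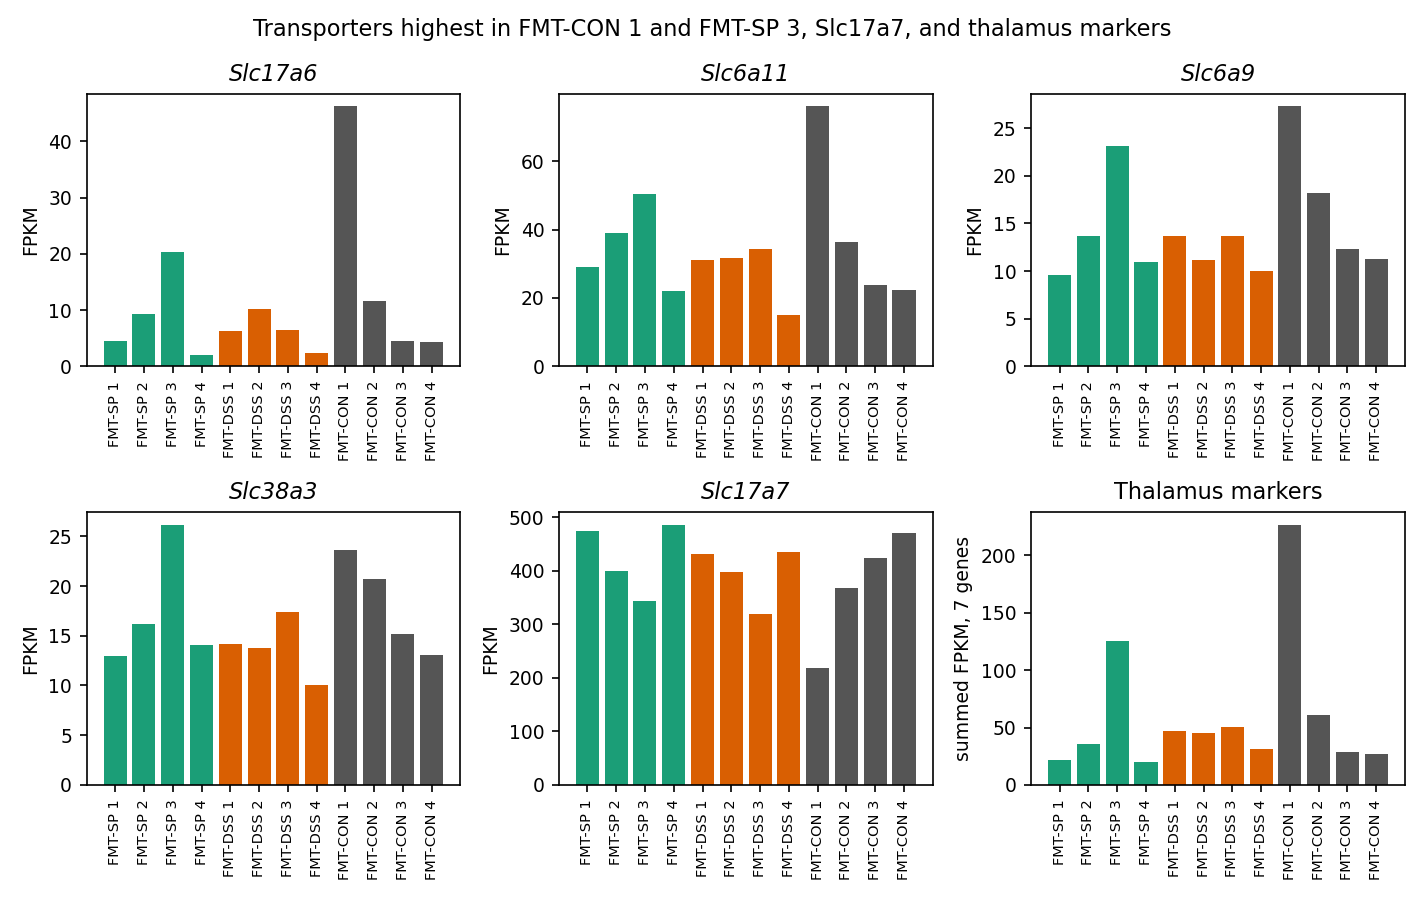
Level in each library, in FPKM, of Slc17a6, Slc6a11, Slc6a9, Slc38a3 and Slc17a7, and the summed FPKM of 7 thalamus markers; each bar is 1 library, coloured by group. FMT-CON 1 and FMT-SP 3 are the 2 highest libraries for Slc17a6 (46.2 and 20.3 FPKM) and for the markers, and Slc17a7 is lowest in FMT-CON 1.

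A second pattern followed the replicate number. In all 3 groups, library 4 was the lowest of its group for 11 of 27 transporters, beside 25.6% of all genes. Among these were Slc1a2, Slc1a3, Slc1a4, Slc6a6, Slc6a11, Slc6a17, Slc17a6, Slc32a1, Slc38a1 and Slc38a2, so that carriers of glutamate, GABA, taurine and glutamine, glial and neuronal, were among them. Slc1a2 in library 4 was 0.589 of the mean of libraries 1 to 3 in FMT-SP, 0.432 in FMT-DSS and 0.552 in FMT-CON. The same ratios for Slc32a1 were 0.590, 0.374 and 0.557 in FMT-SP, FMT-DSS and FMT-CON. Slc17a7 was the 1 transporter that was highest of its group in library 4 in all 3 groups, beside 13.9% of all genes, at ratios of 1.196, 1.14 and 1.40. Slc6a8 lay near 1 in each, at 1.08, 1.09 and 1.02. FMT-DSS 4, the library with the highest mitochondrial share, was the lowest of the 12 for 12 of 27 transporters, beside 28% of all genes.

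**Figure D5:**
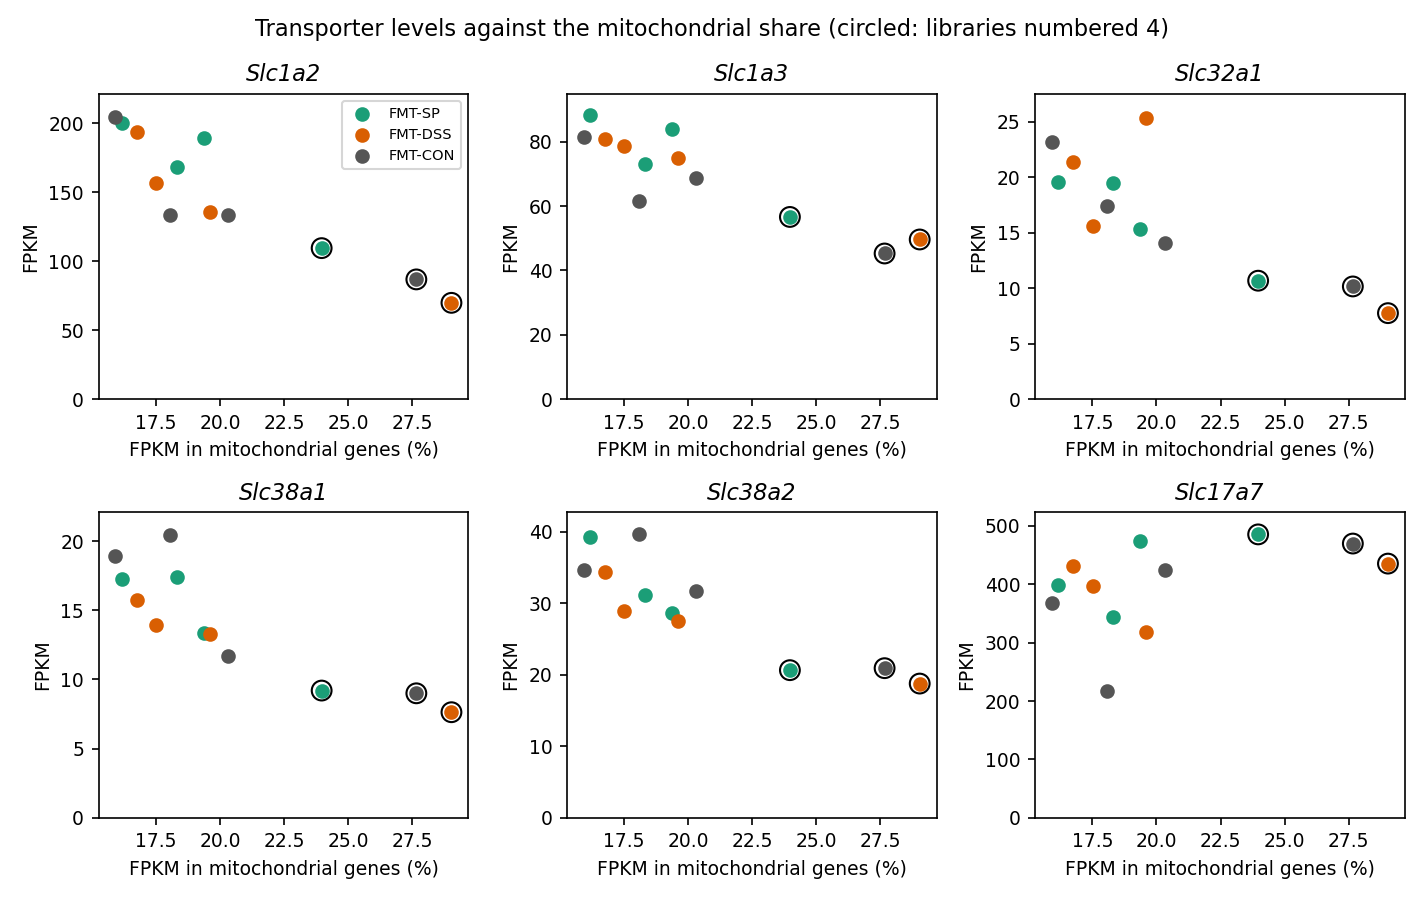
Levels of 6 transporters in FPKM against the share of FPKM in 13 mitochondrially encoded genes, in percent, with 1 point per library coloured by group and a circle around the libraries numbered 4. The circled libraries, at 24.0% to 29.0%, have the lowest Slc1a2, Slc1a3, Slc32a1, Slc38a1 and Slc38a2 of their groups and the highest Slc17a7.

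Transcript length differed between these sets. The longest annotated transcript had a median of 4435 bases in the 11 transporters that were lowest in library 4 and 3350 bases in the other 16. Over all tested genes with an annotated length, the medians were 4752 bases in the 3134 that were lowest in library 4 in every group and 3000 bases in the other 8986. Slc32a1, at 2797 bases, is short and was among the low genes, and Slc38a9, at 8910 bases, is long and was not. The part of length, of the mitochondrial share and of RNA quality in these levels was not tested, and what the number 4 marks is not given.

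Enzymes and carriers that work with the transporters were followed as a list of 37 genes for transmitter synthesis, breakdown and related transport, of which 31 were tested. In limma 0 of 31 passed the adjusted test in any comparison. In FMT-DSS against FMT-CON, 2 had a higher mean at an unadjusted p under 0.05, beside 1.25% of all genes, and 0 a lower one, beside 2.81%. Prodh, which breaks down the proline that Slc6a7 and Slc6a15 carry, averaged 22.1 ± 4.37 FPKM in FMT-DSS and 15.5 ± 1.65 FPKM in FMT-CON, a log2 change of 0.47 ± 0.16 (unadjusted p = 0.0108). Ddc, the decarboxylase of dopamine and serotonin synthesis, averaged 7.37 ± 4.38 FPKM in FMT-DSS and 3.58 ± 1.86 FPKM in FMT-CON, a log2 change of 0.80 ± 0.36 (unadjusted p = 0.0434). Its level was 13.3 FPKM in FMT-DSS 4 and 7.85 FPKM in FMT-DSS 2. FMT-DSS 1 and FMT-DSS 3, at 4.93 and 3.36 FPKM, lay within the FMT-CON range of 2.23 to 6.33 FPKM. Shmt1, which converts serine to glycine, differed by a log2 change of 0.46 ± 0.22 (unadjusted p = 0.0561). In FMT-SP against FMT-DSS, 2 had a lower mean at that threshold, beside 1.23% of all genes, and 0 a higher one, beside 1.27%. Prodh averaged 16.6 ± 2.95 FPKM in FMT-SP and 22.1 ± 4.37 FPKM in FMT-DSS, a log2 change of -0.39 ± 0.16 (unadjusted p = 0.0281), and Shmt1 0.967 ± 0.00970 FPKM in FMT-SP and 1.91 ± 1.08 FPKM in FMT-DSS, a log2 change of -0.49 ± 0.22 (unadjusted p = 0.0418). Ddc differed by -0.77 ± 0.36 (unadjusted p = 0.0509). In FMT-SP against FMT-CON, where 0 were under that threshold, beside 0.358% of all genes, Gamt and Slc7a5 were among the 3 of smallest p. Gamt, which makes creatine, differed by -0.32 ± 0.21 (unadjusted p = 0.141). Slc7a5, a carrier of large neutral amino acids, differed by 0.18 ± 0.15 (unadjusted p = 0.237). The median change of the 31 genes was -0.04, 0.06 and 0.02 in the 3 comparisons in this order.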

How the data were processed

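Total RNA of mouse hippocampal tissue was sequenced in 12 libraries, and the authors deposited 1 table of FPKM values per gene and library. The submitters' processing notes name HISAT2 2.0 and mm8 without their roles; which read counter, annotation and filter were used is not stated in these sources, so it is not given here. Groups and replicate numbers came from the sample titles.

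FPKM values were tested as log2(FPKM + 1) for the 12559 of 27978 genes that averaged 1 FPKM or more, in 1 fit of the 3 groups with limma 3.58.1 in R 4.3.3 (empirical Bayes with trend). Tests were two-sided, with Benjamini-Hochberg adjustment over all tested genes and a threshold of 0.05. The fit was checked on simulated data drawn independently for each gene and library. That check does not cover effects that the genes of a library share. Depth was estimated from the steps of low FPKM values in 4713 genes with 1 annotated transcript; between 34.3% and 37.9% of these values came within 0.05 of a whole fragment, where chance gives 10%, so fragment numbers are estimates. Positions came from GENCODE vM21 (GRCm38), matched by symbol for 49 of 49 transporters, and promoters from RefSeq (GRCm38.p6), for 37 of 49.

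The transporters, marker lists and partner genes were chosen with earlier results of these data known. Values in every library are given for the gene of highest mean in each role, the 5 of smallest p in each comparison and genes whose highest library is at least 3 times the median; of the partner genes, the 3 of smallest p in each comparison are named. Genes below 1 FPKM are given by their range unless 1 library stood out. Others were named after their values were seen. A few genes chosen by it are left out of the text and remain in the counts and medians. Alternatives were another pseudocount, other filters, rescalings, array weights, the replicate number as a block and fits without libraries. No 2 libraries held identical values.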

Additional observations from a re-analysis of the deposited data

Results flagged for a closer look

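Over 81 sets of 4 libraries (27 transporters in 3 groups), 4 held a library far from the other 3 by Dixon's criterion at the 95% level, an event that chance alone gives in about 5% of sets. Slc38a7, a lysosomal glutamine carrier, was at 10.2 FPKM in FMT-SP 4, against 8.23 to 8.56 FPKM in FMT-SP 1 to 3. In FMT-DSS 2, Slc38a7 was at 6.89 FPKM, against 9.38 to 9.497 FPKM in the other FMT-DSS libraries. Slc38a9, the lysosomal arginine sensor, was at 1.99 FPKM in FMT-CON 4, against 2.23 to 2.28 FPKM in FMT-CON 1 to 3. Slc6a11, the astrocyte GABA carrier, was at 15.0 FPKM in FMT-DSS 4, against 31.1 to 34.4 FPKM in FMT-DSS 1 to 3. FMT-DSS 4 also had the highest mitochondrial share, and its part in the Slc6a11 value was not tested.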

How the results depend on the processing

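The count of transporters with an adjusted p under 0.05 was 0 in all 3 comparisons under every alternative run. The counts at an unadjusted p under 0.05 moved. The main fit tested 27 transporters among 12559 genes. The filter at a mean of 0.1 FPKM tested 36 among 17321, and no filter tested 49 among 27978. Counts under these 2 looser settings can therefore include transporters that the main fit did not test. In FMT-DSS against FMT-CON, where the count was 1, it was 3 with a filter at a mean of 0.1 FPKM, 4 with no filter, 3 with median-ratio rescaling, 2 with quantile normalization, and 0 to 3 when 1 library was left out (0 without FMT-CON 2, FMT-CON 3 or FMT-DSS 1, and 3 without FMT-DSS 3). In FMT-SP against FMT-DSS, where the count was 2, it was 4 with no filter, 1 with array weights, 0 without the 3 libraries numbered 4, 0 without FMT-DSS 2 and FMT-DSS 4, 1 without FMT-CON 1 and FMT-SP 3 (chosen after seeing the data), and 0 to 2 when 1 library was left out (0 without FMT-DSS 1 or FMT-DSS 4, and 1 without FMT-SP 2, FMT-SP 3 or FMT-SP 4). In FMT-SP against FMT-CON, where the count was 0, it was 4 with array weights and 0 to 1 when 1 library was left out (1 without FMT-CON 2). Over all genes the counts at an unadjusted p under 0.05, higher and lower, were 157 and 353, 159 and 155, and 8 and 37 in the 3 comparisons in this order. They were 242 and 516, 268 and 268, and 36 and 83 with the filter at 0.1 FPKM, 462 and 740, 430 and 478, and 172 and 284 with no filter, 216 and 284, 140 and 176, and 16 and 34 with quantile normalization, and 109 and 323, 133 and 196, and 333 and 813 with array weights. Median-ratio rescaling gave 12 and 28 in FMT-SP against FMT-CON. Leaving out libraries moved them by over 1.5 times in these cases. In FMT-DSS against FMT-CON they were 304 and 551 without FMT-DSS 1, 78 and 165 without FMT-DSS 2, 286 and 912 without FMT-DSS 3, and 66 and 96 with both FMT-DSS 2 and FMT-DSS 4 left out. In FMT-SP against FMT-DSS they were 423 and 375 without FMT-DSS 1, 63 and 96 without FMT-DSS 2, 550 and 244 without FMT-DSS 3, 72 and 77 without FMT-DSS 4, 22 and 83 without FMT-DSS 2 and FMT-DSS 4, and 76 and 91 without the libraries numbered 4. In FMT-SP against FMT-CON they were 41 and 97 without FMT-CON 2, 12 and 69 without FMT-CON 4, 3 and 11 without FMT-SP 1, 4 and 12 without FMT-SP 2, 38 and 178 without FMT-SP 3, 19 and 107 without FMT-SP 4, 14 and 88 without the libraries numbered 4, 22 and 59 with FMT-DSS 2 and FMT-DSS 4 left out, and 19 and 65 with FMT-CON 1 and FMT-SP 3 left out. The cause of these shifts was not tested, except that a looser filter tests more genes. Of the 1035 recomputed changes of single transporters, 0 passed the adjusted threshold, the smallest adjusted p was 0.436, and 54 turned sign, in each case with a change below its error in one of the fits.

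The groups share replicate numbers 1 to 4. With the number as a replicate block, the counts at an unadjusted p under 0.05 were 4 transporters for FMT-DSS and FMT-CON, 6 for FMT-SP and FMT-DSS, and 3 for the remaining comparison, and 0 passed the adjusted test. Over all genes the block gave 381 higher and 893 lower, 570 and 315, and 112 and 198. Deviations from the group means correlated over 0.1 in 9 of 12 same-numbered pairs (lowest -0.45, median 0.30), and 7 of 12 libraries correlated best with one of their own number. FMT-SP 4 correlated at 0.69 with FMT-DSS 4 and at 0.84 with FMT-CON 4, and FMT-DSS 4 at 0.72 with FMT-CON 4. The libraries numbered 4 thus shared part of their deviations, and those numbered 2 correlated at 0.24 to 0.53. This did not hold for every number: FMT-SP 3 correlated at -0.45 with FMT-CON 3, and FMT-SP 1 at -0.33 with FMT-CON 1. Pairs of different number reached 0.68 (FMT-SP 3 with FMT-CON 1) and 0.66 (FMT-DSS 1 with FMT-CON 2). What the numbers mark is not given, so they were not taken as a pairing in the main fit. With 4 libraries a group, the median 95% interval reached 0.38 to either side on the log2(FPKM + 1) scale. Members under 0.1 FPKM rest on few fragments.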

Other observations

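Several transporters lie side by side on the genome (GRCm38) and differed in level. On chromosome 15, Slc38a1 (96571418 to 96642913), Slc38a2 (96687392 to 96699730) and Slc38a4 (96994820 to 97055956) lie in a row and averaged 13.997, 29.7 and 0.227 FPKM over the 12 libraries. On chromosome 6, Slc6a13 (121300227 to 121337733) and Slc6a12 (121343076 to 121365775) averaged 2.65 and 0.455 FPKM. Slc18a2, the vesicular monoamine carrier, was highest in FMT-DSS 3 at 1.51 FPKM and in FMT-SP 3 at 1.09 FPKM.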
